A study of Mus musculus with 6 samples.

Results

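9 genes of the platelet and its parent cell, the megakaryocyte, are described here in sorted mouse macrophages: the integrin chains Itga2b and Itgb3, the glycoprotein Ib-IX chains Gp1ba, Gp1bb and Gp9, the granule chemokines Ppbp and Pf4, the lipoxygenase Alox12 and the granule receptor Treml1. They were taken by symbol, and all 9 were found among the 15469 genes, all typed as mRNA, of the deposited table. The set was chosen by the counts and TPM of the 6 libraries, with the difference between the study's groups already known, so that difference is given for these genes as a description, and the calls below are not evidence about them. The samples were RELM-α+ macrophages, lavaged from the peritoneum of CAIA mice (an abbreviation the labels do not spell out), sorted by surface RELM-α and plated in macrophage medium. There were 3 libraries labelled KO, which the labels describe as PU.1-deleted, and 3 labelled WT, which they describe as controls. The labels give neither the strain, age or sex of the mice, nor how or in which cells PU.1 was deleted, nor whether libraries sharing a label had different animals or cultures as their source. The p-values below therefore reflect the variation among these 6 libraries alone, part or all of which may be technical.

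Platelets are cell fragments shed by megakaryocytes, and they carry messenger RNA from that cell. Their adhesion rests on the glycoprotein Ib-IX-V complex, which binds von Willebrand factor, and on the integrin of the chains Itga2b and Itgb3, which binds fibrinogen. Their alpha granules store chemokines, adhesion proteins and coagulation factors. Most of these genes are driven in megakaryocytes by GATA1 together with ETS-family factors such as FLI1, and PU.1, the ETS factor named in the labels as deleted, is known to oppose GATA1 in blood progenitors. Some of them are also used by macrophages: Itgb3 pairs with Itgav there, and Pf4 is known to be made by several macrophage types.

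The libraries held 17280855 to 18632623 estimated counts. KO replicate 1 stood apart from the other KO libraries: leaving it out raised the number of genes called between the labels from 379 of 11424 tested to 5793 of 11677. Spi1, which encodes PU.1, was at 276.9 to 319.7 CPM (counts brought to a common, TMM-scaled library size) in the libraries labelled KO and at 283.7 to 340.2 CPM in those labelled WT, so its transcript count did not separate the labels. Y-linked genes did: Ddx3y had 0 to 2 counts in the KO libraries and 853 to 1296 in the WT libraries, and the labelled PU.1 status and the presence of Y-linked transcripts cannot be told apart. The macrophage markers Csf1r and Lyz2 were abundant in all 6 libraries, but of the 9 readable macrophage markers 1 had 0 counts in KO replicate 1 and 1 in WT replicate 2. Csf1r, a growth factor receptor of macrophages, was at 2573 to 2899.9 CPM in KO and 1559.9 to 1567 CPM in WT. Lyz2, which encodes lysozyme, was at 13171 CPM in KO replicate 1 and at 29743 to 36709 CPM in the other 5 libraries.

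Promoter sequences of 5 of the genes are shown to set the chains of the 2 adhesion receptors (Itga2b, Gp1ba and Gp9) beside the adjacent chemokine genes Ppbp and Pf4, whose levels went apart. The choice was not by size of difference: Gp1bb had the lowest ratio of KO to WT and Alox12 a lower one than Itga2b. Each is the RefSeq stretch from 250 bases before to 50 after the annotated start (GRCm38.p6), read 5′ to 3′ on the gene's strand. Capitals mark the GATA hexamers AGATAA or AGATAG and TGATAA or TGATAG, the ETS hexamers AGGAAG or CGGAAG, and TATAAA, on either strand.
Itga2b (chr11:102469834-102470133, minus strand): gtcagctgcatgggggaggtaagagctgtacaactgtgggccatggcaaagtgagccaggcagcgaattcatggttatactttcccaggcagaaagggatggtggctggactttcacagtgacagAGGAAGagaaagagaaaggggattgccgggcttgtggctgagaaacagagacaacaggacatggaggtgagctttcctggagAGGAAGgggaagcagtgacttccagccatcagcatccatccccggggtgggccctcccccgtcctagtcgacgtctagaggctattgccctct
Gp1ba (chr11:70638872-70639171, plus strand): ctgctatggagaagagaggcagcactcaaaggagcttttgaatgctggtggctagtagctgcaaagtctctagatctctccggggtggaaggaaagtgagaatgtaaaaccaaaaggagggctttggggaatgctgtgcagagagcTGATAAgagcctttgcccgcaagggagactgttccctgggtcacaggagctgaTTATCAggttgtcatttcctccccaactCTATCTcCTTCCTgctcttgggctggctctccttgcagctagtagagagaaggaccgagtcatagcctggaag
Gp9 (chr6:87777820-87778119, plus strand): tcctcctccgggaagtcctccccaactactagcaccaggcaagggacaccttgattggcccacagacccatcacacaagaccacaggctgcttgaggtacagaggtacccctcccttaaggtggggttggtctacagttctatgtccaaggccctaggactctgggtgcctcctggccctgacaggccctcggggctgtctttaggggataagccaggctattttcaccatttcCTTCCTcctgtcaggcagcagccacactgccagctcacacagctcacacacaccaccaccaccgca
Ppbp (chr5:90768268-90768567, plus strand): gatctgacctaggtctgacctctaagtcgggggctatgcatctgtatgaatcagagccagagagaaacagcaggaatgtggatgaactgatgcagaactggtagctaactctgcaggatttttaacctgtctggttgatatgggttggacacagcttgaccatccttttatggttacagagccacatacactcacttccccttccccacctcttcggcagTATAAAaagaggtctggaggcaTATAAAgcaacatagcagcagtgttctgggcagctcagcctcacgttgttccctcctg
Pf4 (chr5:90772185-90772484, plus strand): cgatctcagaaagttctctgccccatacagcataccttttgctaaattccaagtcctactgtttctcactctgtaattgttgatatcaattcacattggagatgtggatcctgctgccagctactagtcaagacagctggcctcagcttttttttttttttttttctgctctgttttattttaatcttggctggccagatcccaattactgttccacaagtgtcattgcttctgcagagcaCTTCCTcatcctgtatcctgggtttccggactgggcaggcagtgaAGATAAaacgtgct
The Gp9 stretch lies inside the annotated range of the gene, at a start downstream of the outermost one. A promoter of RefSeq was found for 8 of the 9 genes, Itgb3 being the one without. An ETS hexamer was present in 5 of these 8, namely Itga2b, Gp1ba, Gp1bb, Gp9 and Pf4, against 46.5% of 32851 mouse promoters of the same length. A GATA hexamer was present in 3 of the 8 (Gp1ba, Gp1bb and Pf4), against 29.8% of all promoters. Gp1ba held 3 GATA hexamers, starting 104, 51 and 23 bases before the start, and Itga2b held AGGAAG at 125 and 43 bases before it. The longer GAGGAAGT, a core form of the PU.1 motif that overlaps AGGAAG, was found in 1 of the 8, Pf4, 10 bases before the start on the opposite strand, and in 3.20% of all promoters. TATAAA was present in Ppbp alone among the 8, 30 and 8 bases before the start, and in 13.6% of all promoters. These matches describe the letters of the windows only.

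On the length-corrected scale of the authors' TPM (reads per transcript length, scaled to the same total in each library), Pf4 and Itgb3 were the most abundant of the 9 in the WT libraries, at 84.3 ± 10.7 and 73.6 ± 8.25 TPM (SD, n = 3 here and below), and their ranges overlapped. Ppbp followed at 48.4 ± 15.8 TPM, below the range of Itgb3. Treml1 and Itga2b lay together at 14.8 ± 2.76 and 14.8 ± 4.9 TPM. Alox12, Gp1ba, Gp9 and Gp1bb formed the lowest group, from 3.89 ± 1.62 TPM for Alox12 to 3.05 ± 0.802 TPM for Gp1bb, with overlapping ranges. In the KO libraries the order was led again by Pf4 (128.3 ± 92.7 TPM) and Itgb3 (59.5 ± 20 TPM), followed by Treml1 at 6.18 ± 4.83 TPM, while the other 6 had mean levels of 3.54 TPM or less.

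7 of the genes were lower in every KO library than in every WT library. Such separation with KO below WT was seen in 12.6% of all genes tested, and 0 of the 9 separated the other way, as 18.4% of all genes did. KO replicates 2 and 3 were below all WT libraries for 9 of 9, against 35.6% of all genes. KO replicate 1 was the highest KO library for 8 of 9 (44.8% of all genes) and the highest of all 6 libraries for 1 of 9 (20.4%). In the comparison over all genes with edgeR, 4 of the 9 (Itga2b, Gp1ba, Gp1bb and Gp9) were called lower at an adjusted p under 0.05 and 0 were called higher, while 1.06% of all genes tested were called lower, 2.26% higher and 3.32% in either direction. DESeq2 called Alox12 as well, where 3.69% of its genes were lower. Without KO replicate 1, edgeR called 8 of the 9 lower (26% of all genes) and 0 higher (23.6%), without WT replicate 1 it called Gp1ba alone, and without any 1 of the other 4 libraries it called 0. All 9 passed the filter on low counts, and the low ones did so only through the WT libraries, so none of these counts is read as a result about the set. The median log2 difference, KO minus WT, was -3.87 over the 9 genes and -0.01 over all genes tested. In bulk RNA, fewer cells or fragments of a type and less RNA in each cannot be told apart.

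**Figure D1:**
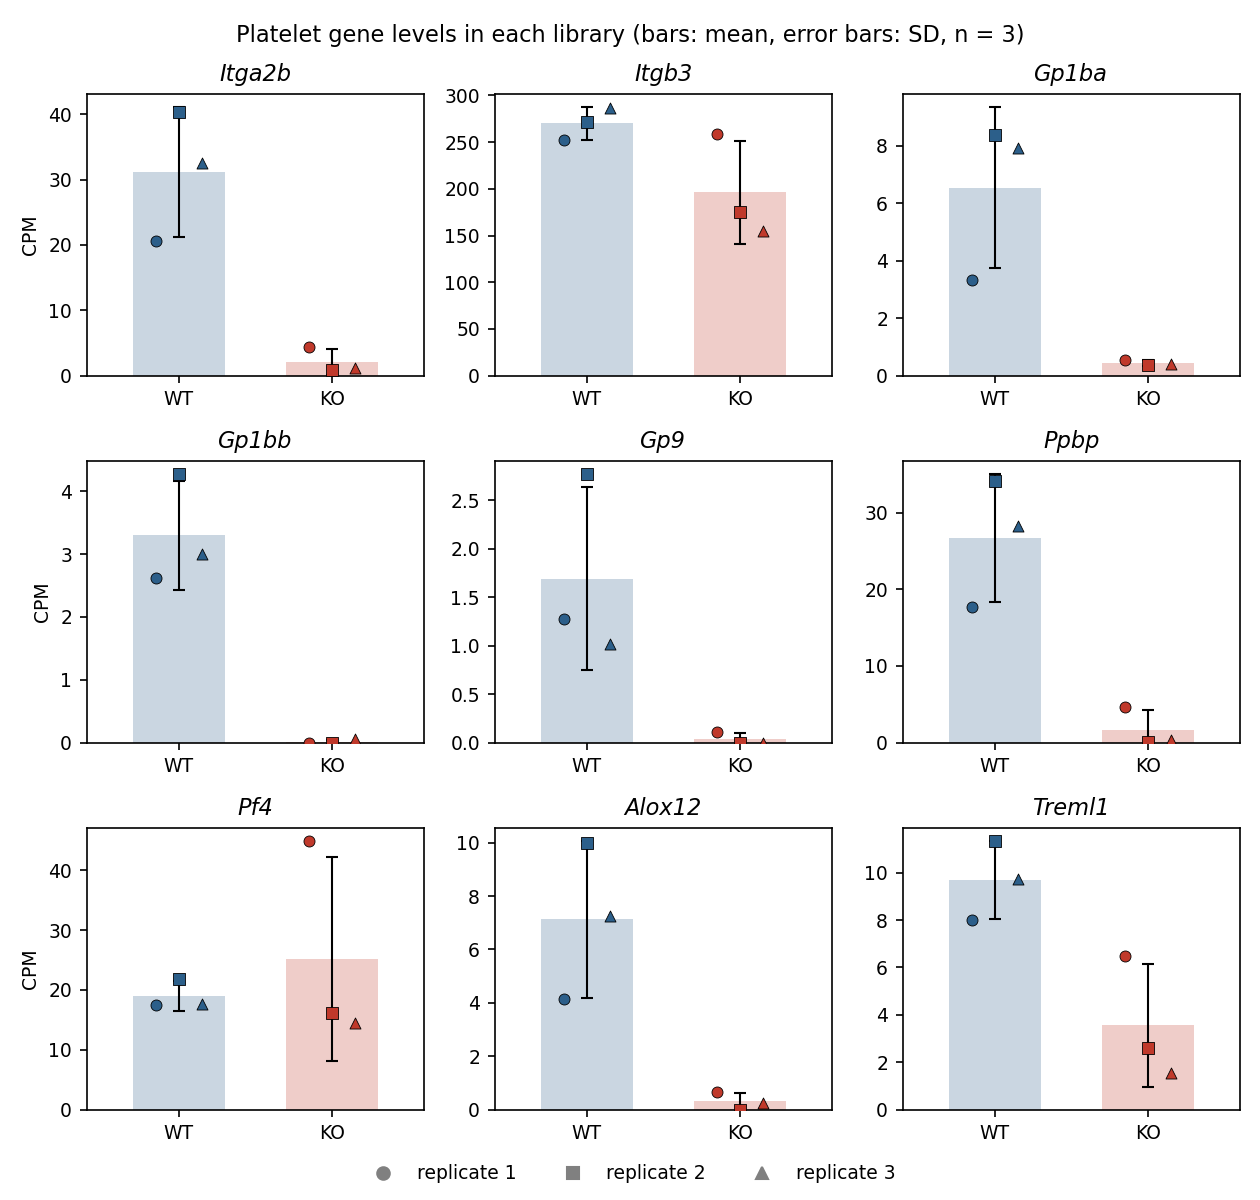
Level of each of the 9 genes in CPM (linear axis from 0, its own scale per panel) in the 3 WT and 3 KO libraries. Bars are means, error bars SD (n = 3, drawn no lower than 0), and marker shape gives the replicate number. Itgb3 and Pf4 are the 2 genes whose groups overlap, and for Pf4 the highest of the 6 libraries is KO replicate 1 at 44.9 CPM.

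Of the 2 chains of the fibrinogen receptor, the alpha chain was far lower in each library labelled KO and the beta chain was not. Itga2b (chromosome 11, 102453297 to 102469883, GRCm38.p6), whose product is largely restricted to megakaryocytes, platelets and early blood progenitors, was at 20.6, 40.4 and 32.5 CPM in WT replicates 1, 2 and 3. In KO replicates 1, 2 and 3 it was at 4.4, 0.873 and 1.15 CPM. The groups did not overlap, and KO replicate 1 was the highest KO library at 0.141 of the WT mean. The KO mean was 0.0687 of the WT mean (2.14 ± 1.96 against 31.2 ± 9.96 CPM), a log2 difference of -3.87 (SE 0.69), or -4.92 (SE 0.402) without KO replicate 1.

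Itgb3 (chromosome 11, 104608000 to 104670476), the beta 3 chain, was at 252, 271.4 and 287 CPM in the WT libraries. It was at 258.5 CPM in KO replicate 1, within the WT range, and at 175.3 and 154.9 CPM in KO replicates 2 and 3, below it. The KO mean was 0.726 of the WT mean, a log2 difference of -0.46 (SE 0.202), and -0.70 (SE 0.094) without KO replicate 1. The ratio of Itgb3 to Itga2b in TPM was 7.05, 3.87 and 5.09 in WT replicates 1, 2 and 3 and 33.8, 115.4 and 78.4 in KO replicates 1, 2 and 3, so the beta chain exceeded the alpha chain in all 6 libraries and by more in each KO library. Itgav, the other alpha chain that pairs with beta 3, was at 79.4 ± 30.6 CPM in KO and 142.4 ± 31.7 CPM in WT (fold 0.557, log2 -0.84, SE 0.305; edgeR adjusted p = 0.181). Its KO replicate 1 (114.6 CPM) lay close below the lowest WT library (122.3 CPM). 0 of the 5 tested integrin partners and ligands was called by edgeR in either direction, with 3 at an unadjusted p under 0.05, where 22.7% of all genes tested were. Without KO replicate 1, 2 of them were called higher (23.6% of all genes) and 1 lower (26%).

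The chains of the von Willebrand factor receptor were close to absent from the libraries labelled KO. Gp1ba (chromosome 11, 70639102 to 70643986), the chain that binds von Willebrand factor, was at 3.31, 8.38 and 7.93 CPM in the WT libraries, by replicate number. The KO libraries had 0.55, 0.359 and 0.417 CPM. The 3 KO libraries lay close together, with 10, 7 and 8 counts. Its log2 difference of -3.87 (SE 0.464) was -4.04 (SE 0.554) without KO replicate 1, so that library moved it less than it moved Itga2b.

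Gp1bb (chromosome 16, 18620319 to 18622403), the beta chain linked to Gp1ba, had 45, 74 and 50 counts in the WT libraries and 0, 0 and 1 in the KO libraries. The totals of 169 and 1 counts gave a ratio of 187.7 for WT over KO (95% exact binomial interval 33.2 to 7459, counting error only). Its listed counts were not all whole numbers, and its range overlaps that of Sept5, a septin gene whose human counterpart has transcripts that run on into GP1BB, so reads of the pair may have been divided. Sept5 itself was below 1 CPM in all 6 libraries, at 0.165 to 0.834 CPM in KO and 0.291 to 0.661 CPM in WT.

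Gp9 (chromosome 6, 87776131 to 87779786), the small chain needed for the complex to reach the surface, had 22, 48 and 17 counts in the WT libraries and 2, 0 and 0 in the KO libraries. The ratio of the totals, 87 and 2, was 48.3 (interval 13 to 405). Gp5, the remaining chain of the complex, which was not among the 9, had 2.79, 7.1 and 4.14 CPM in the WT libraries by replicate number, and 0.605, 0.0513 and 0.104 CPM in the KO libraries. It was not called over all 6 libraries (log2 -4.19, SE 0.83; edgeR adjusted p = 0.0586) and was called without KO replicate 1 (adjusted p = 0.000496, in a fit that called 26% of all genes lower).

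The 2 granule chemokines lie 2372 bases apart and differed in pattern. Ppbp (chromosome 5, 90768518 to 90770063), the precursor of the neutrophil-attracting chemokine CXCL7, was at 17.7, 34.1 and 28.3 CPM in WT replicates 1, 2 and 3. In KO replicates 1, 2 and 3 it was at 4.68, 0.0513 and 0.313 CPM, which is 85, 1 and 6 counts. The KO libraries thus differed among themselves more than for any other of the 9 genes with counts in all 6 libraries, and the log2 difference was -4.00 (SE 1.24) with all libraries and -7.14 (SE 0.573) without KO replicate 1.

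Pf4 (chromosome 5, 90772435 to 90773383), which encodes platelet factor CXCL4, was at 17.6, 21.8 and 17.6 CPM in the WT libraries and at 44.9, 16.2 and 14.5 CPM in KO replicates 1, 2 and 3. KO replicate 1 was the highest of the 6 libraries, at 2.36 times the WT mean, and KO replicates 2 and 3 were the lowest. The log2 difference was 0.41 (SE 0.464) and turned to -0.29 (SE 0.138) without KO replicate 1. On the TPM scale, Pf4 was 1.52 to 2.46 times Ppbp in the WT libraries, 23.7 times in KO replicate 1, 783.8 times in KO replicate 2 and 116.9 times in KO replicate 3. The other flanking genes of the cluster were low: Cxcl5, next to Ppbp, was at 0.22 to 1.62 CPM in KO and 0.809 to 1.5 CPM in WT, and Cxcl3, next to Pf4, was at 1.76 CPM in KO replicate 1 and at or below 0.289 CPM in the other 5 libraries. Of 9 other CXC chemokines encoded on chromosome 5, 6 were in the table and 2 had enough counts to test, and edgeR called 0 of them over all 6 libraries, with 0 at an unadjusted p under 0.05. Without KO replicate 1 it called 1 of them, Cxcl2, lower, as it did 26% of all genes. Cxcl10, named after its values were seen, was too low to test but separated the labels. It had 41, 15 and 8 counts in KO replicates 1, 2 and 3, and 1, 0 and 1 in WT replicates 1, 2 and 3.

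**Figure D2:**
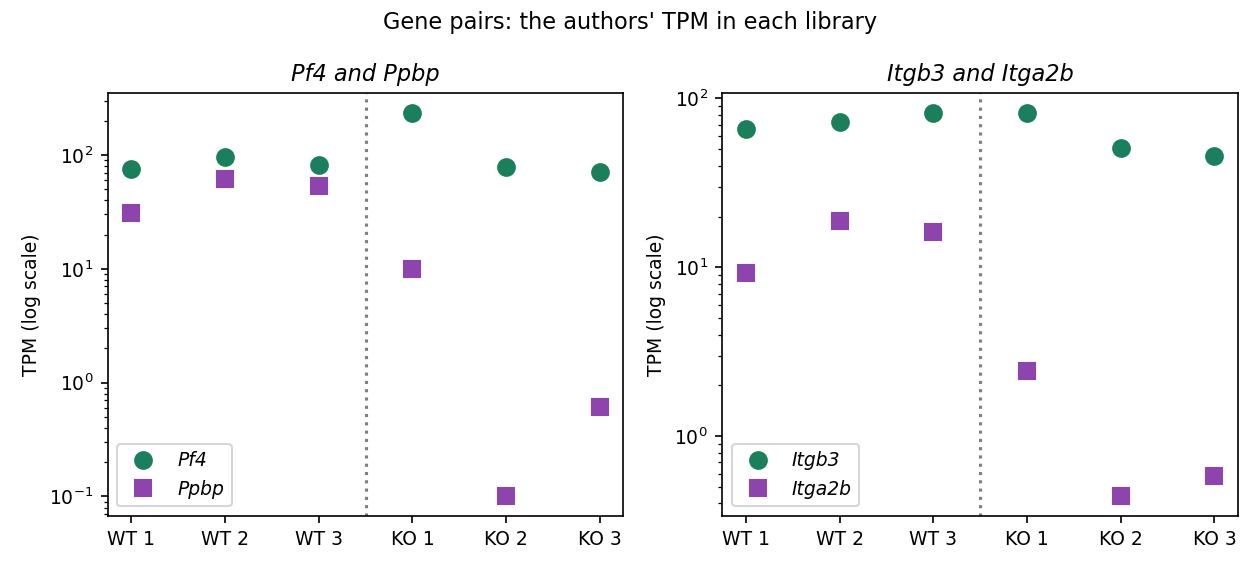
The authors' TPM in each library on a log axis for Pf4 and Ppbp (left) and Itgb3 and Itga2b (right), with WT libraries left of the dotted line. Pf4 and Itgb3 are at 45.5 TPM or more in every library, while Ppbp drops to 0.1 TPM in KO replicate 2 and Itga2b to 0.44 TPM.

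Alox12 (chromosome 11, 70241457 to 70255380), the 12-lipoxygenase that turns arachidonic acid into the platelet product 12-HETE, had 71, 173 and 121 counts in WT replicates 1, 2 and 3. It had 12, 0 and 5 counts in KO replicates 1, 2 and 3. The groups did not overlap, the ratio of the totals, WT over KO, was 23.9 (interval 14.7 to 41.4), and the log2 difference was -4.53 (SE 0.914), or -5.70 (SE 0.776) without KO replicate 1. Among 9 other tested genes of eicosanoid metabolism, 1 was called higher and 0 lower: Alox5, the 5-lipoxygenase of leukocytes, rose from 6.75 ± 2.51 to 21.9 ± 2.57 CPM (log2 1.70 with an SE of 0.276, and an adjusted p of 0.0396 by edgeR). It stayed called without KO replicate 1 and was not called when any 1 of the other 5 libraries was left out. Over all genes tested, 2.26% were called higher and 1.06% lower. Of the 9, 3 had every KO library above every WT library (18.4% of all genes) and 0 the reverse (12.6%). Ptgs1, a cyclooxygenase gene named after its values were seen, was among the 3, at 33.9 ± 12 CPM in KO against 17.4 ± 1.19 CPM in WT (edgeR adjusted p = 0.129). Without KO replicate 1, 2 of the 9 were called higher (23.6%) and 2 lower (26%). Alox15, another lipoxygenase gene and the next gene of the table on the other side of Alox12, was at 0.469 to 0.881 CPM in KO and 0.465 to 0.924 CPM in WT.

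Treml1 (chromosome 17, 48359916 to 48367176), which encodes TLT-1, a receptor held in alpha granule membranes and shown on activated platelets, differed less than the other 6 genes with separated groups. It was at 8.02, 11.3 and 9.73 CPM in the WT libraries and at 6.49, 2.62 and 1.56 CPM in KO replicates 1, 2 and 3. KO replicate 1 came close to the lowest WT library, and the log2 difference was -1.45 (SE 0.531) with it and -2.19 (SE 0.258) without it. Trem2, a macrophage receptor gene 7640 bases away, was at 834.6 to 1059 CPM in KO and 939 to 1155 CPM in WT (log2 -0.14; edgeR adjusted p = 0.528).

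The WT libraries also differed among themselves in these genes, which is a description too, since the set was chosen on these libraries. WT replicate 2 held at least 1.5 times the CPM of WT replicate 1 for 6 of the 9 genes, against 3.06% of all genes tested and 3.14% of the 7188 with a WT mean of 1 to 50 CPM. The ratio was 1.96 for Itga2b (95% exact interval 1.72 to 2.24), 1.93 for Ppbp (1.68 to 2.22), 2.53 for Gp1ba (1.85 to 3.5) and 2.42 for Alox12 (1.83 to 3.24). For Gp9 it was 2.17 (1.28 to 3.77) and for Gp1bb 1.63 (1.11 to 2.42). Itgb3, at 1.08 (1.03 to 1.12), Pf4, at 1.24 (1.07 to 1.45), and Treml1, at 1.41 (1.13 to 1.77), were below that mark. These intervals cover counting error only and compare 2 libraries, not 2 conditions. WT replicate 3 was at 0.798 of WT replicate 1 for Gp9, level with it for Pf4 (17.6 CPM in both) and above it for the other 7.

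**Figure D3:**
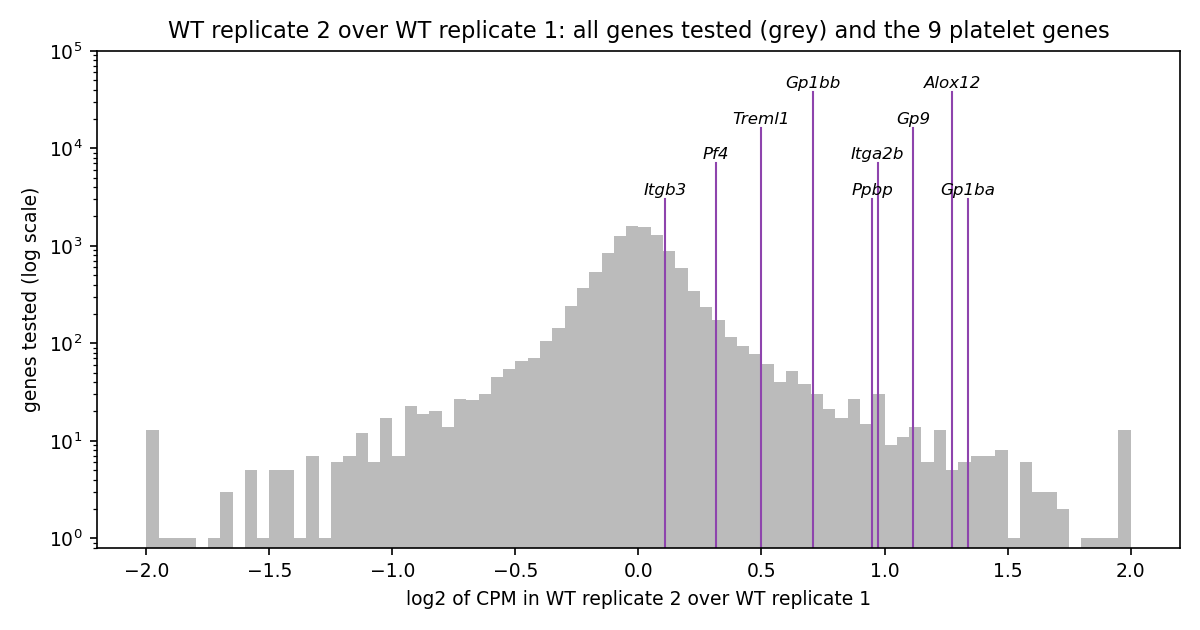
Histogram of the log2 ratio of CPM between WT replicates 2 and 1 over all genes tested (grey, log count axis, values beyond 2 in either direction placed in the end bins), with the ratio of each of the 9 genes as a vertical line whose height carries no value. Itgb3 (1.08-fold) lies in the body of the distribution and Gp1ba (2.53-fold) farthest to the right.

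Relative to Itga2b, the counts of several of the genes kept similar proportions in the WT libraries. There were 0.859, 0.845 and 0.871 Ppbp counts per Itga2b count in WT replicates 1, 2 and 3, and 0.201, 0.247 and 0.224 Alox12 counts. In KO replicate 1, with 80 Itga2b counts, the corresponding values were 1.06 for Ppbp, 0.15 for Alox12 and 0.125 for Gp1ba, which was at 0.161 to 0.244 in WT. Gp1bb was at 0.0924 to 0.127 per Itga2b count in WT and at 0 in KO replicate 1. KO replicates 2 and 3 held only 17 and 22 Itga2b counts, and their Ppbp values of 0.0588 and 0.273 rest on 1 and 6 counts. Gp1ba was at 0.412 and 0.364 in KO replicates 2 and 3, above its WT range, on 7 and 8 counts. Gp9 was at 0.0314 to 0.0687 in WT and at 0.025, 0 and 0 in KO. For Pf4, Itgb3 and Treml1 every KO library was above every WT library. Pf4 was at 0.541 to 0.853 per Itga2b count in WT and at 10.2 to 18.6 in KO, and Treml1 at 0.28 to 0.39 in WT and at 1.36 to 3 in KO.

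Over the 6 libraries, the log2 CPM of Itga2b correlated at Pearson's r of 0.935 to 0.985 with Gp1ba, Gp1bb, Gp9, Ppbp, Alox12 and Treml1, at 0.897 with Itgb3 and at 0.122 with Pf4, as a description of libraries that fall into separate groups. Of 8276 further genes averaging 10 CPM or more, those most like Itga2b were Tle2 (r = 0.992), Dnajb6 (0.992) and Rdh14 (0.99), whose differences were far smaller: Dnajb6 was at 103.7 to 118.7 CPM in KO and 130.1 to 134.5 CPM in WT. Those most like Pf4 were Stk11ip (0.986), Hp (0.981) and Glb1 (0.973). Hp, which encodes haptoglobin, was at 58 CPM in KO replicate 1 and at 2.44 to 5.26 CPM in the other 5 libraries.

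Other genes of platelets and megakaryocytes that were not among the 9 were read in the same fit, which tests them over all genes. Over 4 lists with 71 tested genes, edgeR called 6 lower (1.06% of all genes tested) and 1 higher (2.26%), and the median log2 difference was -0.10. The count rested on all libraries being present: it was 48 without KO replicate 1 (32 lower and 16 higher of 74 tested, where 49.6% of all genes were called) and 0 without any 1 of the other 5. These lists were written with earlier results of the same data known. Several of their low genes passed the filter on low counts only through the WT libraries. The counts and medians of the lists are therefore not read as results about them.

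Among the surface receptors, 3 of 14 tested genes fell and 0 rose, with a median log2 difference of -2.04 (1.06% of all genes tested were called lower and 2.26% higher). Without KO replicate 1, 12 of 16 were called lower (26% of all genes) and 2 higher (23.6%). F2rl2, Gp5, Gp6 and Selp had 11 or fewer counts in each KO library and passed the filter only through the WT libraries. F2rl2, a thrombin receptor subunit of mouse platelets, fell from 3.27 ± 1.12 to 0.3 ± 0.125 CPM (log2 -3.42, SE 0.467, edgeR adjusted p = 0.0276). Cd9, a tetraspanin that macrophages also carry in quantity, fell from 913.9 ± 49.7 to 615.6 ± 18.9 CPM (fold 0.674, adjusted p = 0.0326). Gp6, the collagen receptor, was at 0.181 ± 0.23 against 2.17 ± 0.573 CPM (adjusted p = 0.084), Selp, the granule selectin, at 0.234 ± 0.232 against 1.86 ± 0.457 CPM (0.0687), and Clec1b, the podoplanin receptor, at 1.3 ± 0.839 against 3.48 ± 0.278 CPM (0.198). Clec1b was the one of these in which KO replicate 1 was the lowest KO library, at 0.385 CPM against 1.49 and 2.03 CPM. The ADP receptors P2ry1 and P2ry12, named after their values were seen, lay the other way, each KO library above each WT library. P2ry1 was at 15.1 ± 2.39 against 9.13 ± 2.83 CPM (edgeR adjusted p = 0.166) and P2ry12 at 1.95 ± 0.809 against 0.881 ± 0.259 CPM (0.19).

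Among granule contents and granule assembly genes, 3 of 21 fell (1.06% of all genes tested) and 0 rose (2.26%), with a median log2 difference of -0.15. Without KO replicate 1, 9 of 22 were called lower (26% of all genes) and 4 higher (23.6%). Clu, which encodes clusterin, fell from 3.45 ± 1.48 to 0.389 ± 0.164 CPM (log2 -3.13 with an SE of 0.524, and an adjusted p of 0.0411 by edgeR). Pdgfa, a growth factor chain, fell to 0.592 of its WT level (adjusted p = 0.0387) and Cd63, a granule and lysosome membrane protein, to 0.642 (0.0396). Vwf, which encodes von Willebrand factor itself, was at 85.6 ± 31.4 against 88.6 ± 15 CPM (log2 -0.05, SE 0.28, adjusted p = 0.922) and was highest in KO replicate 1 at 121.9 CPM. F5, Mmrn1 and F13a1, coagulation factor V, the multimerin that binds it and a chain of coagulation factor XIII, were chosen after their values were seen. F5 was at 1.05 ± 1.38 against 9.11 ± 3.59 CPM (adjusted p = 0.138) and Mmrn1 at 0.183 ± 0.318 against 4 ± 1.41 CPM (0.0953). F13a1 was higher in each KO library than in each WT library, at 28.4 ± 14 against 6.02 ± 1.83 CPM (fold 4.72, edgeR adjusted p = 0.0557).

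Of 16 tested megakaryocyte transcription factors, edgeR called 0, with 5 at an unadjusted p under 0.05 (22.7% of all genes), and the median log2 difference was 0.07. In 3 of them (Gata1, Gata2 and Nfe2) all KO libraries lay below all WT libraries, and in 4 (Zfpm1, Lmo2, Etv6 and Mafk) above, as 12.6% and 18.4% of all genes did. Gata1, the factor that drives megakaryocyte and erythroid genes, had 1.1, 2.19 and 2.34 CPM in the WT libraries by replicate number, against 0.385, 0.0513 and 0.104 CPM in the KO libraries (log2 -3.36, SE 0.676, adjusted p = 0.0581). Nfe2, a factor of platelet release, was at 1.51 ± 1.27 against 3.98 ± 0.901 CPM (adjusted p = 0.233). Fli1 and Runx1, which macrophages also express, were at 60.7 ± 8.26 against 55 ± 8.01 CPM (adjusted p = 0.576) and 75.7 ± 17.1 against 80.8 ± 9.66 CPM (0.758). Without KO replicate 1, edgeR called 6 of the 16 factors lower (26% of all genes) and 3 higher (23.6%).

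Among genes of the platelet cytoskeleton and of integrin activation, 1 of 20 rose and 0 fell: Plcg2, a phospholipase of immune receptor signalling, rose from 131.7 ± 4.25 to 200.8 ± 10.7 CPM (log2 0.61 with an SE of 0.0798, and an adjusted p of 0.0245 by edgeR). Tubb1, the tubulin of the platelet ring, was at 0.451 ± 0.468 against 1.39 ± 0.229 CPM (adjusted p = 0.229). The median log2 difference of the list was -0.02. Over all genes tested, 2.26% were called higher and 1.06% lower. Without KO replicate 1, 7 of the 20 were called higher (23.6% of all genes) and 5 lower (26%).

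**Figure D4:**
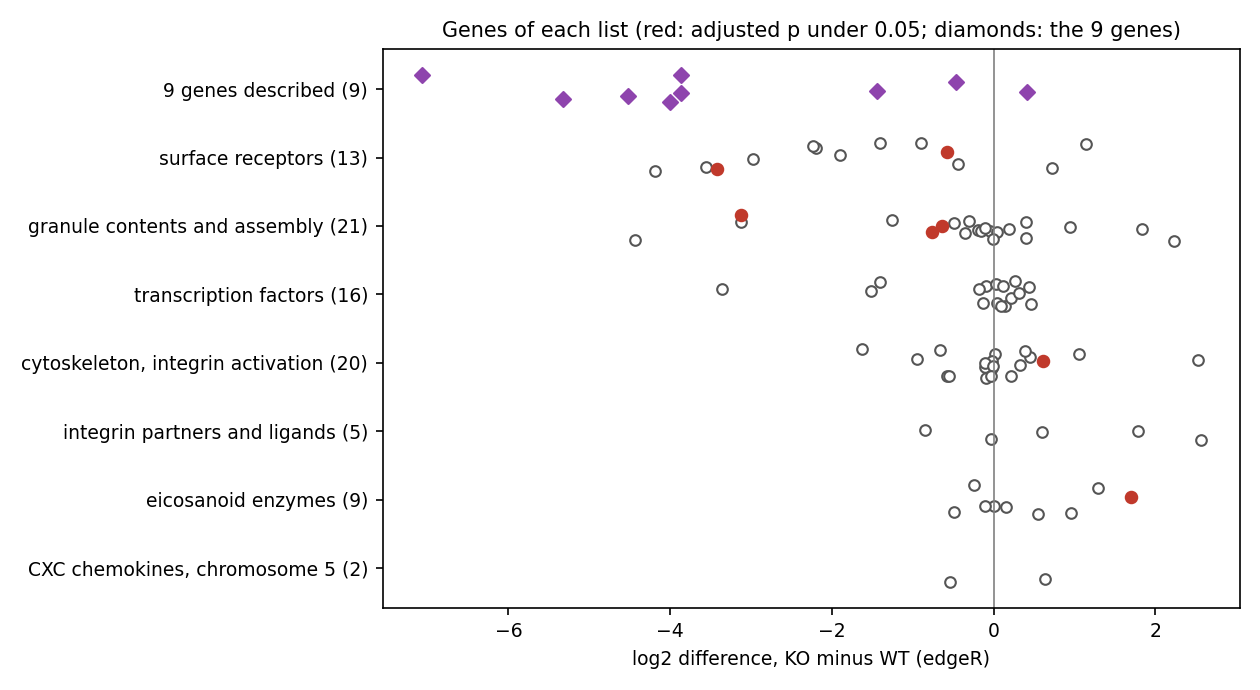
Log2 difference, KO minus WT, of the tested genes in each list, with the number drawn in brackets (1 tested surface receptor is not drawn). Red points passed an adjusted p under 0.05 in edgeR, open points did not, and purple diamonds are the 9 genes described, drawn without their calls; vertical scatter within a list carries no value. The surface receptors drawn reach from Gp5 at -4.19 to P2ry12 at 1.15.

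Among the 71 tested genes of the 4 lists, 20 had at least 1.5 times the CPM in WT replicate 2 that they had in WT replicate 1. Of these, 10 were among the 14 tested surface receptors. The share was 3.06% of all genes tested and 3.14% of those with a WT mean of 1 to 50 CPM. Some of the 20 lay below that band, with few counts in WT replicate 1: Mylk had 4, Pear1 9 and Gata2 10. At such counts the ratio has a wide counting error, and no share was taken for genes as low as these. The ratio was 2.55 for Gp5 (interval 1.81 to 3.63), 1.99 for F2rl2 (1.3 to 3.09) and 1.99 for Gata1 (1.12 to 3.65). Others of the 20 had an interval that included 1, such as P2ry12 (0.783 to 4.34), Gata2 (0.73 to 4.13) and Selp (0.953 to 2.89). The ratio was 0.916 for Fli1, 0.969 for Runx1 and 1.06 for Cd63.

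None of the tested genes next to the 9 on their chromosomes was called by edgeR. Gpatch8, next to Itga2b, was at 49.3 to 55 CPM in KO and 37 to 52.6 CPM in WT (edgeR adjusted p = 0.328), and Slc25a11, 33 bases from Gp1ba, at 102 to 122.1 and 98.3 to 118.9 CPM (0.7). Rab43, next to Gp9, had a log2 difference of 0.13 (adjusted p = 0.542) and Rnasek, next to Alox12, of -0.31 (0.208), with all 3 KO libraries below all 3 WT libraries. Efcc1, on the other side of Gp9, was low in all libraries and likewise separated, at 0.165 to 0.313 CPM in KO and 0.756 to 1.44 CPM in WT (log2 -2.15, adjusted p = 0.0562).

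Markers of other cells were read beside these values. The 6 erythroid markers of 10 that could be read summed to 1.6 to 4.01 CPM in KO and 4.26 to 5.83 CPM in WT. Except in KO replicate 1, most of each sum was Epor, a receptor gene. It was at 0.11, 2.82 and 4.01 CPM in KO and 4.07, 3.87 and 2.52 CPM in WT. The haemoglobin gene Hba-a1 had 0.66, 0.0513 and 0 CPM in the KO libraries against 0.64, 1.33 and 0.901 CPM in the WT libraries. Hbb-bs, another haemoglobin gene, had 0.605, 0 and 0 CPM against 0.465, 0.173 and 0.3 CPM. Red cells were lysed before the sort, per the labels' protocols. The 4 readable mast cell and basophil markers of 9 summed to 0.716 to 1.13 CPM in KO and 0.174 to 0.462 CPM in WT. Most of the KO sums came from Kit, the 1 tested marker, with each KO library above each WT library. Kit was at 0.66, 1.13 and 0.73 CPM in KO and 0.0582, 0.289 and 0.42 CPM in WT (edgeR adjusted p = 0.17). Cpa3, the mast cell carboxypeptidase, was at 0 in all 3 KO libraries and at or below 0.0582 CPM in WT. The 7 neutrophil markers of 8 summed to 79 to 137.1 CPM in KO and 113.3 to 114.2 CPM in WT, nearly all of it from Csf3r. All 3 tested ones had a log2 difference below 0, and 0 was called over all 6 libraries and 3 were called lower without KO replicate 1 (26% of all genes). S100a8 was at 2.59 ± 0.964 CPM in KO against 6.21 ± 0.389 CPM in WT, with no overlap (edgeR adjusted p = 0.0774), and S100a9 at 0.71 ± 1.01 against 1.99 ± 0.39 CPM (0.396). The 8 osteoclast markers of 9, a programme that also uses Itgb3, summed to 250 to 316.2 CPM in KO and 829.2 to 1191 CPM in WT. Most of the WT sums was Atp6v0d2, at 656.1 to 983.9 CPM. Of 6 tested, 2 were called lower (Ctsk and Atp6v0d2; 1.06% of all genes) and 0 higher. Without KO replicate 1, 4 were called lower (26%) and 2 higher (23.6%). Nfatc1 was higher in each KO library than in each WT library, at 95.5 ± 1.82 against 73 ± 2.19 CPM (edgeR adjusted p = 0.0524). Of the macrophage markers, 9 of 10 were read, summing to 19651 to 43872 CPM in KO and 35102 to 39629 CPM in WT, with 1 called higher (Csf1r, edgeR adjusted p = 0.0208). Adgre1 and Cd14 were also above all WT libraries in each KO library, at 1.71 and 2.65 times the WT mean (0.0758 and 0.0788). That made 3 of the 8 tested macrophage markers separated with KO above WT (18.4% of all genes). Another 2 of the 8 were separated with KO below WT (12.6% of all genes), and 4 had a log2 difference below 0. The part of any of these in the levels of the 9 genes was not tested.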

How the data were processed

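Messenger RNA of sorted cells was captured on beads and sequenced on an Illumina instrument, per the labels' protocols, with 3 libraries labelled KO and 3 labelled WT, as their titles give. Read trimming software fastp 0.18.0 and the build GRCm39 are named in the submitters' processing notes, but the table's chromosome accessions are of GRCm38. Which aligner, counter and strand setting were used is not given in the sources used here. Per gene, the authors deposited estimated counts, which were rounded to whole counts, and TPM values, which were used only to compare levels between genes. The FPKM, log2 fold change, p-value and q-value columns the authors deposited, per the file headers, were not used. Columns belonging to other samples numbered 0. Positions are those of RefSeq for GRCm38.p6, because the table merges reference and alternate scaffolds for several of the genes. All 9 matched by gene ID.

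Depth was 17280855 to 18632623 counts per library. Genes were filtered with filterByExpr (minimum count 10), scaled with TMM and compared with edgeR 4.0.16 (quasi-likelihood F test, robust, R 4.3.3), adjusted by Benjamini-Hochberg over 11424 genes. SE is the log2 difference divided by the square root of F. Ratios of low counts have exact 95% binomial intervals. The fit was tested on simulated data. The settings also run were DESeq2 1.42.0, limma-voom (limma 3.58.1), RLE or upper-quartile factors in edgeR, no filter, the replicate number as a block, and each library left out. The genes, lists and naming rule (called list genes averaging 1 CPM or more, at most 4 a list, plus 12 fixed genes; for likeness, 10 CPM or more) were chosen with earlier results of these data known. 1 gene of the surface receptor list, included in the counts and medians of that list, is not reported here.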

Additional observations from a re-analysis of the deposited data

How the results depend on the processing

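The signs of the 9 genes' log2 differences were the same under every setting run, except that Pf4 went from 0.41 to -0.29 without KO replicate 1. The count of called genes, 379, was 376 with RLE factors, 382 with upper-quartile factors, 335 by limma-voom and 293 without a filter, but 1344 by DESeq2 (459 lower and 885 higher), and 5 to 5793 when single libraries were left out, the highest being without KO replicate 1. The 7 called genes of the 4 platelet lists became 24 by DESeq2 (21 lower and 3 higher) and 0 to 48 when single libraries were left out. With the replicate block both counts were 0, with 1976 genes and 29 list genes at an unadjusted p under 0.05. Deviations from the group means correlated at -0.162, 0.246 and -0.271 between same-numbered KO and WT libraries. With 3 libraries a group, these values cannot decide whether the numbers pair the samples. Of the 9 genes, DESeq2 called Alox12 besides the 4 called by edgeR, and without a filter edgeR called 2, Gp1ba and Gp1bb. Of the 8 called genes of all lists, all 8 stayed called with RLE factors, 5 with upper-quartile factors, 7 by limma-voom and 7 without a filter. With single libraries left out, the log2 difference of Vwf (-0.05) ranged from -0.38 to 0.084, above 0 without KO replicate 2 or 3 or WT replicate 2 or 3. That of Runx1 (-0.09) ranged from -0.28 to 0.0022, above 0 only without WT replicate 3. Counts of 12 or fewer in each KO library limit the folds of Gp1ba, Gp1bb, Gp9 and Alox12. The same limit holds for list genes such as F2rl2, Clu, Gp5, Gp6, Selp, Mmrn1 and Gata1.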
